A study of Sus scrofa with 12 samples.

Results

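The kinesin genes were all RefSeq mRNA genes of the pig assembly Sscrofa11.1 (susScr11) whose symbol is KIF followed by a number, with or without a letter, or KIFC followed by a digit. The rule found 41 of 20678 annotated mRNA genes. Of these, 40 encode kinesin motors, and KIF1BP encodes a protein that binds kinesins and carries no motor. MeRIP-seq, in which RNA fragments carrying N6-methyladenosine (m6A) are pulled down with an antibody and sequenced beside the untreated input, was performed on spermatozoa of 3 Duroc boars. Fresh sperm (Fs) came from one part of each ejaculate and received no treatment before freezing for RNA extraction. Frozen-thawed sperm (Fts) came from the other part, which was diluted, cooled to 17 °C and centrifuged. Its pellets were taken up in a lactose and egg yolk extender, cooled to 4 °C, given the same extender with 6% glycerol, frozen in straws and thawed. Each group had 3 IP samples and 3 Input samples, and each boar gave 5 ejaculates. The labels tie no sample number to a boar and do not say how ejaculates were combined, so the spread among 3 samples may be partly technical. The comparison asks where m6A peaks lay on the kinesin mRNAs of each group and which of them differed after freezing and thawing.

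Kinesins are ATP-driven motors that walk along microtubules. Most carry vesicles, mitochondria or protein complexes to the plus end, some slide or depolymerise the microtubules of the spindle, and kinesin-2 carries the particles from which cilia and flagella are built. In the testis, kinesins serve the meiotic spindle, the shaping of the spermatid nucleus and the assembly of the sperm tail. Mature sperm are almost silent in transcription, so their mRNA is largely a store laid down earlier in spermatogenesis. A base with m6A usually lies in the motif RRACH, which is read as purine, purine, A, C and any base but G.

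Each IP sample had its own peak list, in which the score of a peak is 10 times -log10 of the p with which its IP reads exceeded its input reads. A score of 20 stands for a p of 0.01 and a score of 50 for a p of 1e-05. The lists held from 8015 to 11982 peaks per sample, of which 6818 to 10681 lay on an exon of an mRNA gene on the same strand. Fs had 6818, 8819 and 8724 such peaks and Fts had 8482, 10369 and 10681, so the groups overlapped. The median score of these peaks was 11.9, 11.4 and 10.7 in Fs and 13.1, 16.2 and 13.4 in Fts, higher in each Fts sample than in any Fs sample. A score of exactly 3100, the highest printed for a kinesin gene, was held by 12, 14 and 14 of the deposited peaks in Fs and by 34, 67 and 37 in Fts. Scores above it were held by 0, 0 and 0 peaks in Fs and 1, 3 and 2 in Fts, so 3100 may be a ceiling set by the peak caller and not a measured size. Read depth is not part of the lists, and a gene without a peak may be unmethylated or too thinly covered. The study's sequencing summary gives fewer mapped IP reads in every Fts sample than in any Fs sample. It also gives a lower share of mapped Input reads in every Fts sample. Peak presence and scores can depend on depth, so group and depth cannot be told apart here, and the part of depth was not tested. Fewer cells of a type and less RNA per cell cannot be told apart in these bulk samples.

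The labelled cell type was checked on genes of late spermatids and sperm. Of 11 such genes, 4 had a peak (PRM2, TNP2, ODF2 and SPATA18), and their peaks numbered 0, 0 and 0 in Fs and 4, 5 and 2 in Fts. PRM1, TNP1, ODF1, AKAP4, SMCP, TSSK6 and GAPDHS had none in any sample. Of 5 leukocyte genes, PTPRC and ITGAM had peaks, in all 0, 2 and 2 in Fs and 0, 0 and 1 in Fts, and CD14, CSF1R and LYZ had none. Of 4 epithelial genes, 3 had peaks, 0, 1 and 2 in Fs and 5, 5 and 4 in Fts, most of them on KRT8, and EPCAM had none. The 4 connective tissue genes held 4, 3 and 7 peaks in Fs and 5, 2 and 3 in Fts. Single markers whose groups did not overlap were SPATA18 of the sperm list (0, 0 and 0 against 1, 1 and 1), KRT8 (0, 0 and 0 against 3, 4 and 2), COL1A2 (0, 0 and 0 against 3, 1 and 1) and, lower in Fts, VIM (1, 1 and 1 against 0, 0 and 0). The summed peaks of the sperm and epithelial lists were higher in every Fts sample than in any Fs sample, and the part of any marker in the kinesin results was not tested. Before extraction the study treated sperm pellets with a detergent to lyse somatic cells.

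The exons that carry the repeated kinesin findings are shown first. They are coding stretches, each from a single peak within the CDS and at most 300 bp long, of regions that held a peak in all 6 samples, in all 3 Fts samples and no Fs sample, or in all 3 Fs samples and no Fts sample. Each sequence is the span of the highest-scoring peak of the region, read 5′ to 3′ on the transcript strand from the RefSeq assembly Sscrofa11.1, with RRACH matches on that strand in capitals. Only the transcript strand was searched.

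Peaks in all 6 samples included those on exon 14 of KIF5C, on the minus strand, where the peak shown is chr15:3242788-3242935. It held 1 RRACH match. In Fs 1 and Fs 2 the peak covered only 31 bp of this stretch, at 3242905-3242935.
KIF5C exon 14: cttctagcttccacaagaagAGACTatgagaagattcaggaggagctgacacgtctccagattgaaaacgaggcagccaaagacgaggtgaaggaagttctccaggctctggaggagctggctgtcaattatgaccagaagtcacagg

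Peaks in all 3 Fts samples and no Fs sample included those on exon 21 of KIF1B, on the plus strand at chr6:70586479-70586659, and on exon 13 of KIF3A, on the minus strand at chr2:135008766-135008946. A further such region, on exon 23 of KIF1C, is longer than the limit and is described with its gene. The KIF1B exon held 7 RRACH matches, 1 of them GGACT, and the KIF3A exon held 4.
KIF1B exon 21: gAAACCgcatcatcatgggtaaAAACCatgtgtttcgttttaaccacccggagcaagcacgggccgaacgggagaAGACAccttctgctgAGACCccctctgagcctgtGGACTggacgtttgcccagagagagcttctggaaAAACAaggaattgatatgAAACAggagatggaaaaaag
KIF3A exon 13: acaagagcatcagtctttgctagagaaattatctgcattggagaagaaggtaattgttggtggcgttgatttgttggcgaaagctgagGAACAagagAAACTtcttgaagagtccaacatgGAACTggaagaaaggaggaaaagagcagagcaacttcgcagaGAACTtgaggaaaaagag

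Coding peaks in all 3 Fs samples and no Fts sample lay on exon 31 of KIF13B (chr14:12959794-12959918), exon 7 of KIF12 (chr1:254716738-254716829) and exon 13 of KIF13A (chr7:13562827-13562961), all on the minus strand. They held 1, 2 and 3 RRACH matches, and none held GGACT.
KIF13B exon 31: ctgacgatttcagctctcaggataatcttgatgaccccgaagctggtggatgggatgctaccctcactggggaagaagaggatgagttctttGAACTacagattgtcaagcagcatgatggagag
KIF12 exon 7: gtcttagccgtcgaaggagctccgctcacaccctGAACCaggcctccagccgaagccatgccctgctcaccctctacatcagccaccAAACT
KIF13A exon 13: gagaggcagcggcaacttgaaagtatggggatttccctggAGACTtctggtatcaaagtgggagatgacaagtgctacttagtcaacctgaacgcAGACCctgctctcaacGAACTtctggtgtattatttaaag

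All but the KIF5C peak filled an annotated exon from edge to edge. A peak on such an exon cannot place the modified base within it. Among peaks of 92 to 181 bp, the range of the sequences shown, RRACH was present in 92.4% of 105 kinesin peaks and in 85.7% of 18915 peaks on all mRNA genes, and GGACT in 15.2% and 12.4%. A match marks no base as methylated.

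Kinesin mRNAs carried m6A peaks in both groups, and their number did not separate fresh from frozen-thawed sperm. Of the 41 genes, 30 (73.2%) had at least 1 peak in at least 1 sample, against 11705 of all 20678 mRNA genes (56.6%). Kinesin transcripts are long, with a median of 21 exons and 5424 nt against 7 exons and 2698 nt for all mRNA genes, so the shares are not on equal terms. The 11 genes without a peak were KIF19, KIF1A, KIF22, KIF25, KIF26A, KIF2A, KIF2B, KIF4A, KIF5A, KIFC2 and KIFC3. The remaining genes held 184 peaks over the 6 samples, and none of these peaks also lay on another gene. KIF13B, KIF1BP, KIF21A and KIF5C had a peak in every sample, whereas KIF18A, KIF18B, KIF20A, KIF21B and KIF3C had peaks in a single one.

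Kinesin peaks numbered 25, 32 and 26 in Fs and 25, 42 and 34 in Fts. The means were 27.7 ± 3.79 and 33.7 ± 8.50 (SD, n = 3), a difference of 6 peaks that was smaller than the spread of the Fts samples. The lowest Fts sample equalled the lowest Fs sample. The difference rested on single samples, at 1.83 peaks without Fts 2 and 10.3 without Fts 1. Kinesin genes with a peak numbered 16, 19 and 18 in Fs and 15, 22 and 20 in Fts, again overlapping. Set against the length of each list, there were 3.67, 3.63 and 2.98 kinesin peaks per 1000 mRNA peaks in Fs and 2.95, 4.05 and 3.18 in Fts, with means of 3.43 ± 0.386 and 3.39 ± 0.581.

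**Figure D1:**
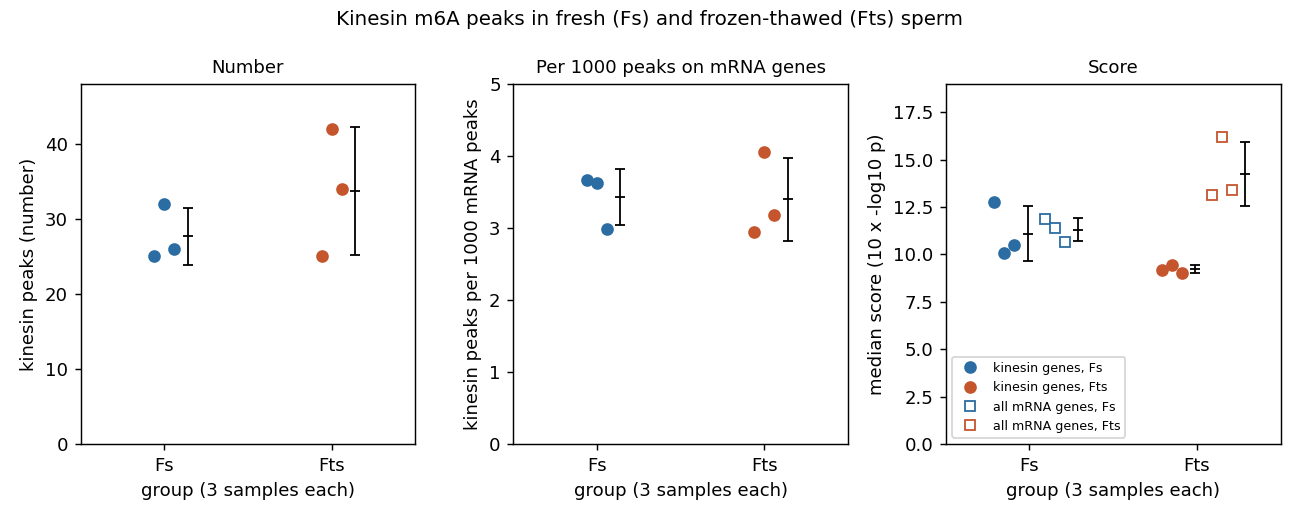
Kinesin peaks per sample (left), per 1000 peaks on mRNA genes (middle), and the median peak score (right, filled circles for kinesin genes and open squares for all mRNA genes). Points are samples, bars are mean ± SD of 3 samples. The groups overlap in the left and middle panels, and on the right the kinesin medians of Fts (9.02 to 9.46) lie below those of Fs (10.1 to 12.8) while the medians of all genes lie above.

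Kinesin peaks of frozen-thawed sperm had lower typical scores. The median score was 12.8, 10.1 and 10.5 in Fs and 9.20, 9.46 and 9.02 in Fts, lower in each Fts sample than in any Fs sample. Over all mRNA genes the same medians ran the other way, as given above. The order did not extend to the upper end of the scores. With peaks of at least 20 alone the difference of the medians turned to 17.9 above Fs, and with peaks of at least 50 to 250 above it. The latter rested on Fts 1, whose 2 such peaks had a median of 805, and without that sample it was 11.1. At that limit the medians were 62.3, 94.0 and 76.9 in Fs and 805, 104 and 74.0 in Fts, so the groups overlapped, whereas at the limit of 20 they were 33.1, 28.2 and 34.3 in Fs and 42.2, 58.4 and 48.9 in Fts. Scores of at least 50 were held by 3, 2 and 2 kinesin peaks in Fs and by 2, 6 and 4 in Fts. Weak peaks formed the majority, as 56.0%, 59.4% and 57.7% of the kinesin peaks in Fs and 72.0%, 57.1% and 70.6% in Fts had a p above 0.05.

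Most kinesin peaks lay in coding sequence. Of the 184 peaks, 156 were centred in the CDS of the longest transcript, 16 in the 3'UTR, 6 in the 5'UTR and 6 outside the exons of that transcript. The CDS share was 80.0%, 87.5% and 80.8% in Fs and 88.0%, 88.1% and 82.4% in Fts, with overlapping groups. Over all mRNA genes it ran from 70.7% to 71.8% in Fs and from 76.3% to 77.1% in Fts, and each sample's kinesin share exceeded its share over all genes. Kinesin transcripts are longer and have more exons, as given above, and the part of this in the CDS share was not tested. Of the CDS peaks, 45.0%, 39.3% and 42.9% in Fs and 40.9%, 21.6% and 35.7% in Fts fell in the third of the CDS nearest the start codon, against 36.0% to 36.7% in Fs and 37.1% to 38.2% in Fts over all mRNA genes. The 3'UTR peaks were concentrated on KIF1BP, KIF5C and KIF21A.

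Kinesin peaks followed exon boundaries closely. Of the 184 peaks, 121 (65.8%) filled a whole annotated exon, namely 16, 17 and 18 in Fs and 19, 30 and 21 in Fts. These counts were 64.0%, 53.1% and 69.2% of the kinesin peaks in Fs and 76.0%, 71.4% and 61.8% in Fts, against 38.8% to 40.1% and 50.3% to 53.6% over all mRNA genes. Kinesin transcripts have a median of 21 exons against 7 for all mRNA genes, so these shares too are not on equal terms. The median length was 124, 124 and 130 bp in Fs and 148, 148 and 160 bp in Fts, longer in every Fts sample. RRACH was present in 88.0%, 90.6% and 84.6% of kinesin peaks in Fs and 92.0%, 90.5% and 91.2% in Fts. GGACT was present in 16.0%, 15.6% and 26.9% and in 20.0%, 21.4% and 17.6%. Both motif shares overlapped between the groups.

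Peak number separated the groups on 4 kinesin genes, all of the kinesin-3 family, which is the largest here with 7 genes. KIF16B, KIF1B and KIF1C had more peaks in every Fts sample than in any Fs sample, and KIF13A had fewer. Of the 30 genes with a peak, 3 (10%) were thus higher in Fts and 1 (3.33%) lower, where 8.98% and 5.36% of all 11705 mRNA genes with a peak did the same. The kinesin shares were near this background. A two-sided exact permutation test of 3 against 3 samples has 20 assignments and cannot give a p under 0.1, the value reached by each of the 4 genes. After Benjamini-Hochberg adjustment over the 11705 genes it became 0.698, so none passed a threshold of 0.05. Without Fts 1, 5 genes were higher in Fts, with KIF15 and KIF5B added. Without Fs 2, Fs 3 or Fts 2, 2 genes were lower, with KIF20B, KIF13B and KIF9 added in turn. With a sample left out these counts could only stay or rise. The shares of all mRNA genes given here are for 3 against 3 samples and are no background for them. With peaks of at least 20 or of at least 50 alone, all 4 calls were lost and KIF13B was lower in Fts.

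**Figure D2:**
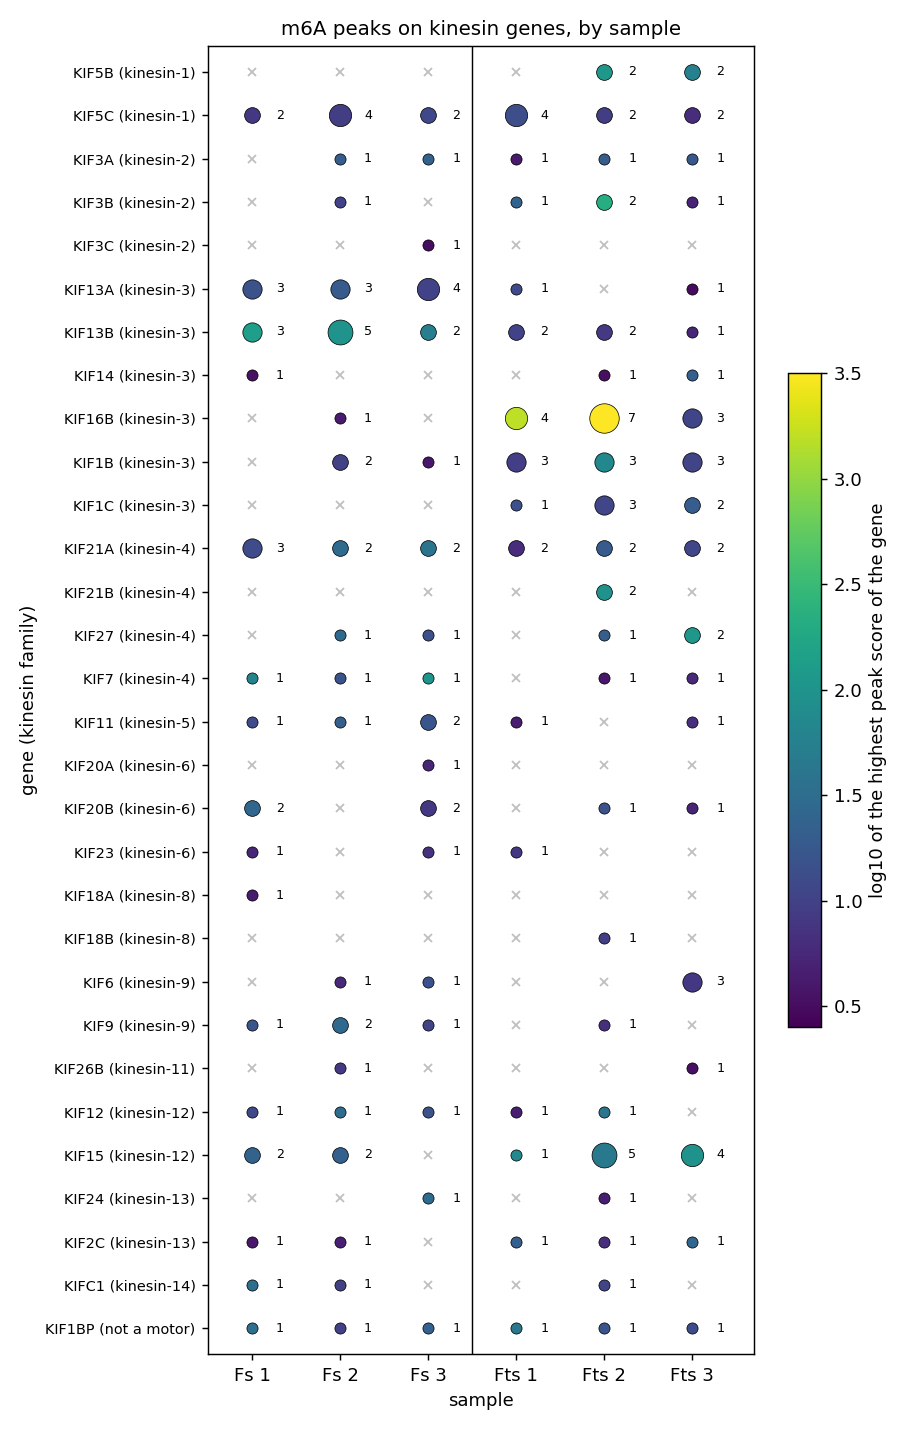
Peaks on the 30 kinesin genes with a peak, in rows ordered by family, for the 3 Fs and 3 Fts samples in columns. Circle area and the number beside it give the peaks of the gene, colour gives log10 of its highest score, and a cross marks a sample without a peak. KIF16B goes from 0, 1 and 0 peaks in Fs to 4, 7 and 3 in Fts, and KIF13A goes from 3, 3 and 4 to 1, 0 and 1.

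The kinesin-3 motors carry vesicles and organelles over long distances and held more peaks than any other kinesin family in every sample, at 7, 11 and 7 in Fs and 11, 16 and 11 in Fts over 6 genes with a peak. With 7 genes of 23 to 50 exons it is also the largest family here, so its peak total is not on equal terms with the others. KIF16B, which moves early endosomes and binds their membrane through a PX domain, had the largest gain in peak number. It had 0, 1 and 0 peaks in Fs and 4, 7 and 3 in Fts. Its single Fs peak, on exon 22, had a score of 4.16. In Fts 1 and Fts 2 the 1362-bp exon 21 of 25 (chr17:24986723-24988084, minus strand) was a peak from edge to edge with scores of 1537 and 3100, the latter at the possible ceiling, and it held 18 RRACH matches and 1 GGACT. Fts 3 had no peak on that exon, and its highest KIF16B score was 10.9, on exon 7. The gain in number was thus shared by 3 samples and the very high score by 2.

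KIF1B carries mitochondria and synaptic vesicle precursors. It had 0, 2 and 1 peaks in Fs and 3 in each Fts sample. The Fs peaks lay on exons 41, 44 and 45 of 49, near codons 1446 to 1629 of 1817. Each of these exons had a peak in a single Fs sample, with low scores of 8.66, 3.91 and 10.1. The Fts peaks lay on exons 2, 6, 7, 12, 21 and 23, all at or before codon 721, so no exon was shared by the groups. Exon 21, shown above, was the only one with a peak in all 3 Fts samples, and its scores were 4.05, 71.3 and 10.4. Once peaks on both sides of an exon junction counted as 1, the Fts 2 peaks on the neighbouring exons 6 and 7 were joined and KIF1B no longer separated the groups.

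KIF1C, a motor of Golgi traffic and of integrin vesicles, had no peak in Fs and 1, 3 and 2 peaks in Fts. All 3 Fts samples had a peak on its last exon, 23, between 51900301 and 51900984 of chromosome 12 on the minus strand, with scores of 14.4, 6.50 and 20.1. Fts 2 and Fts 3 also had a peak on exon 19, with scores of 8.33 and 10.3. None of the Fts peaks of KIF1C reached a score of 50.

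KIF13A and KIF13B are close relatives that carry endosomal and membrane cargo. In frozen-thawed sperm KIF13A had fewer peaks and KIF13B a lower highest score. KIF13A had 3, 3 and 4 peaks in Fs and 1, 0 and 1 in Fts. Its highest scores were 15.1, 18.9 and 10.4 in Fs and 12.6 and 3.08 in Fts 1 and Fts 3, so the number separated the groups and the score did not. Exon 13, shown above, had scores of 3.51, 7.02 and 10.3 in Fs and no peak in Fts. The other exons of KIF13A with a peak were 3, 4, 8, 17 and 27, and the Fts peaks lay on exons 8 and 27, which Fs samples also used.

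KIF13B had 3, 5 and 2 peaks in Fs and 2, 2 and 1 in Fts, which overlapped, but its highest score was 135, 97.0 and 52.4 in Fs and 10.3, 8.31 and 5.47 in Fts, with a clear gap. Exon 31 had scores of 9.30, 97.0 and 52.4 in Fs and no peak in Fts. The score of 135 belonged to exon 2 in Fs 1 alone. KIF14, a motor of cytokinesis, had 1, 0 and 0 peaks in Fs and 0, 1 and 1 in Fts. The last kinesin-3 gene, KIF1A, had none.

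**Figure D3:**
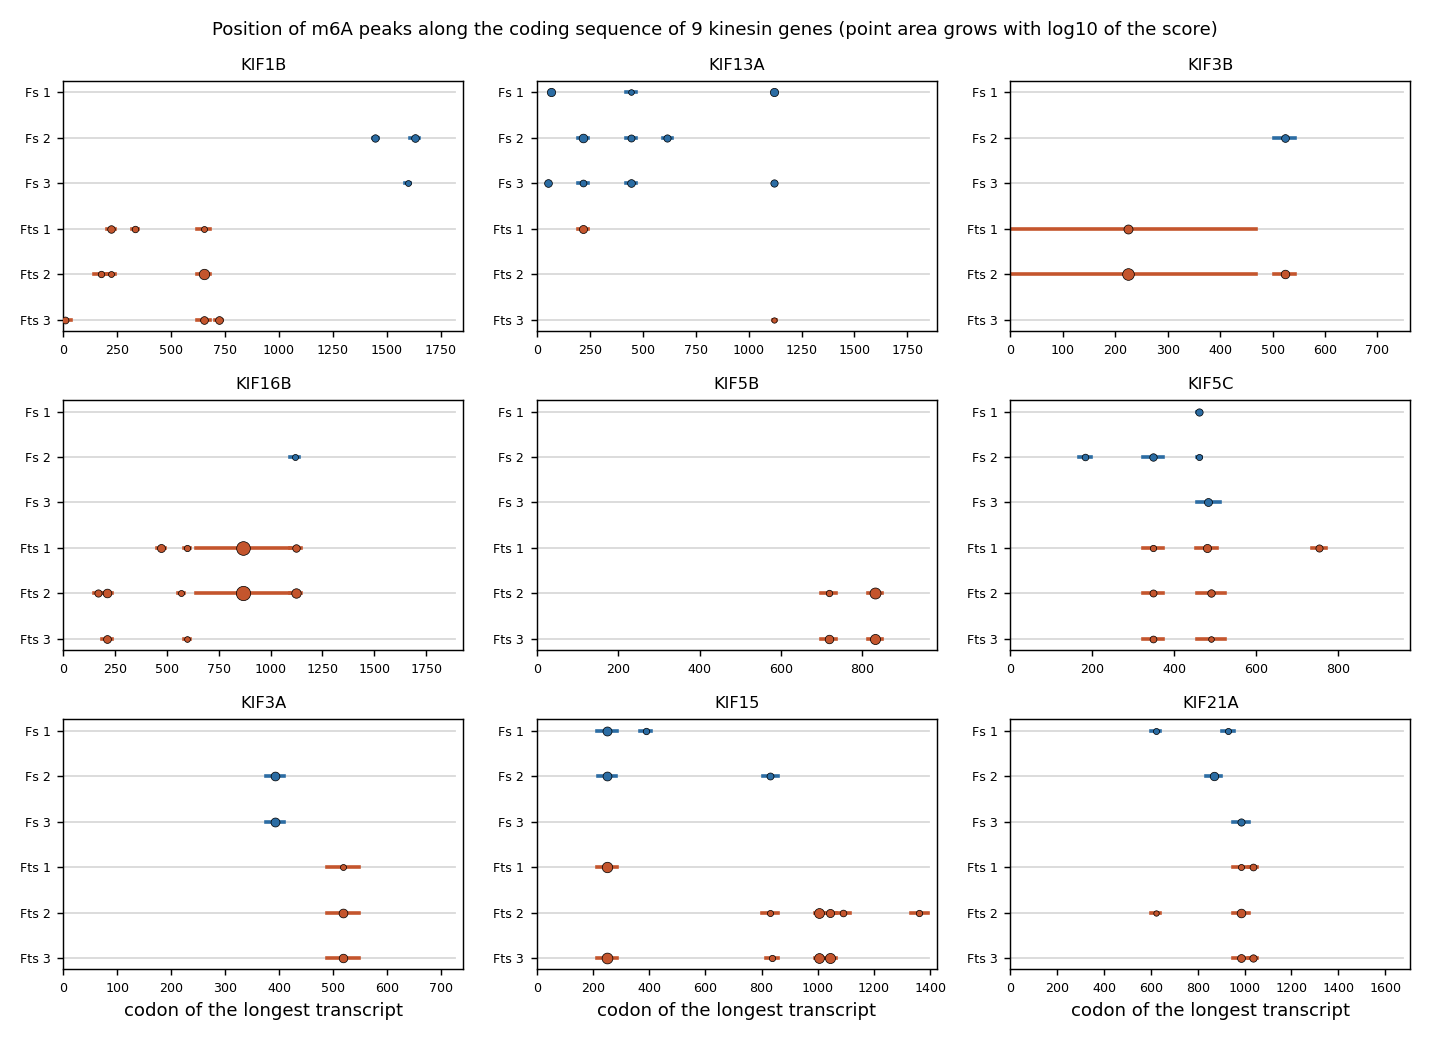
Peaks along the coding sequence of 9 kinesin genes, by codon of the longest transcript (horizontal axis) and sample (vertical axis, Fs in blue and Fts in orange). Bars give the length of a peak, and the area of a point grows with log10 of its score. KIF1B peaks lie at codons 1446 to 1629 in Fs and at or before codon 721 in Fts, while KIF3A peaks lie at codon 393 in Fs and at codon 519 in Fts. Each KIF1B exon with an Fs peak had it in a single Fs sample, at a score of 10.1 or less.

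The kinesin-1 motors are the main carriers of cargo toward the cell edge and are built from KIF5A, KIF5B or KIF5C with light chains. KIF5C held the most peaks of any kinesin, 16 over the 6 samples, with 2, 4 and 2 in Fs and 4, 2 and 2 in Fts. None of them was strong, as the highest score was 8.04, 8.91 and 11.9 in Fs and 13.5, 9.02 and 6.23 in Fts. Exon 14 held a peak in all samples, with scores of 8.04, 4.40 and 11.9 in Fs and 13.5, 9.02 and 3.51 in Fts. The peaks of Fs 1 and Fs 2 were only 31 bp long, against 148 bp in Fts 1. On exon 11 a peak was present in Fs 2 and in all 3 Fts samples, and in the last exon a 3'UTR peak was present in all 3 Fs samples and Fts 1. KIF5B had no peak in Fs or in Fts 1, and 2 peaks in Fts 2 and in Fts 3. Its exon 23 (chr10:42646861-42646965, minus strand) had scores of 113 and 54.3 there and exon 19 scores of 5.08 and 17.7.

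The kinesin-2 motors KIF3A and KIF3B pair to form the motor of intraflagellar transport. KIF3A had 0, 1 and 1 peaks in Fs and 1, 1 and 1 in Fts, and the exon differed between the groups. The Fs peaks lay on exon 9, with scores of 20.6 and 22.9. The Fts peaks lay on exon 13, shown above, with scores of 4.07, 20.7 and 17.7. KIF3B had 0, 1 and 0 peaks in Fs and 1, 2 and 1 in Fts. Its 1469-bp exon 2 (chr17:35941747-35943215, plus strand) was a peak from edge to edge in Fts 1 and Fts 2, with scores of 23.8 and 208, and held 26 RRACH and 3 GGACT matches. The peak of Fts 3 lay in the 3'UTR, with a score of 5.06. KIF3B was higher in Fts without Fs 2, the Fs sample with its peak. KIF3C had a single peak, in Fs 3, with a score of 3.21.

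Among the kinesin-4 genes, KIF21A and KIF21B restrain microtubule growth, and KIF7 and KIF27 are relatives of which KIF7 works in Hedgehog signalling at the cilium tip. KIF21A had 3, 2 and 2 peaks in Fs and 2 in each Fts sample. Its 3'UTR in exon 38 had a peak in all 3 Fs samples, with scores of 12.8, 29.7 and 39.3, and in no Fts sample. Its exon 21 had a peak in Fs 3 and in all 3 Fts samples, with scores of 7.75 and of 4.25, 18.7 and 11.1. KIF7 had 1 peak in each Fs sample, all on exon 6 (chr7:55212845-55212961, minus strand), with scores of 61.4, 15.6 and 101. Fts 1 had none, Fts 2 had the same exon with a score of 3.87 and Fts 3 had exon 5 with a score of 5.60.

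KIF27 had 0, 1 and 1 peaks in Fs and 0, 1 and 2 in Fts. Its highest score was 28.2 and 14.5 in Fs 2 and Fs 3, on exon 4, and 20.7 and 109 in Fts 2 and Fts 3, on exon 14. Exon 4 also held a peak in Fts 3, with a score of 3.26. KIF21B had peaks in Fts 2 alone, on exons 18 and 14, with scores of 94.2 and 73.7. No other sample had a peak on KIF21B.

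The kinesins of the spindle and of cell division included KIF15, which helps to hold the spindle bipolar. KIF15 had 2, 2 and 0 peaks in Fs and 1, 5 and 4 in Fts. Its highest score was 23.8, 22.0 and none in Fs and 72.2, 45.5 and 93.7 in Fts, so the score separated the groups and the number did not. Exon 8 held the highest peak of Fs 1, Fs 2, Fts 1 and Fts 3, and exons 25 and 26 held peaks in Fts 2 and Fts 3 alone, with scores of 45.5 and 43.5 and of 13.5 and 54.4. KIF12, of the same family, had 1 peak in each Fs sample, on exon 7, with scores of 11.7, 31.3 and 15.0. In Fts 1 and Fts 2 its only peak lay on the next exon, 8, with scores of 4.62 and 40.4, and Fts 3 had none.

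KIF11, the motor that pushes the spindle poles apart, had 1, 1 and 2 peaks in Fs and 1, 0 and 1 in Fts. All samples with a peak had one on the first exon, in the 5'UTR, with scores of 12.9, 21.3 and 16.1 in Fs and 4.42 and 6.65 in Fts 1 and Fts 3. KIF2C, which depolymerises microtubules at the centromere, had 1, 1 and 0 peaks in Fs and 1 in each Fts sample, with scores of 3.87 and 4.71 in Fs and 21.1, 6.49 and 26.0 in Fts. These were not a single shared peak. The Fs peaks and that of Fts 1 lay on exon 20, that of Fts 2 on exon 7 and that of Fts 3 on exon 6. The kinesin-6 genes of cytokinesis, KIF20A, KIF20B and KIF23, held 3, 0 and 4 peaks in Fs and 1, 1 and 1 in Fts, with overlap. KIF20B gave most of these, with scores up to 26.5, and its exons 9 and 32 had peaks in Fs 1 and Fs 3 alone. KIF18A and KIF18B, which shorten microtubule ends, had 1 peak each in the 6 samples, with scores of 4.21 and 9.49. KIF24, which acts at centrioles, had a peak of 29.3 in Fs 3 and of 4.62 in Fts 2.

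The remaining genes with a peak were KIF9, KIF6, KIFC1, KIF26B and KIF1BP. KIF9, of the kinesin-9 family, acts in the flagellum. It had 1, 2 and 1 peaks in Fs and 0, 1 and 0 in Fts. Its exon 12 had scores of 16.2, 28.2 and 10.6 in Fs and 6.81 in Fts 2. KIF6, of the same family, had 0, 1 and 1 peaks in Fs and 0, 0 and 3 in Fts, with a highest score of 14.8. KIFC1, a motor toward the minus end that helps to shape the spermatid nucleus and acrosome, had 1, 1 and 0 peaks in Fs and 0, 1 and 0 in Fts. The Fs peaks lay on exon 2, with scores of 32.2 and 9.95, and the Fts peak on exon 7, with a score of 10.8. KIF26B had 1 peak in Fs 2 and 1 in Fts 3, at 8.56 and 3.33. KIF1BP had exactly 1 peak in each sample, at the end of its 3'UTR, with scores of 34.1, 10.04 and 22.2 in Fs and 42.2, 16.5 and 12.8 in Fts, which overlapped.

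The highest score of a gene separated the groups on 8 kinesin genes. It was lower in every Fts sample for KIF13B, KIF7, KIF9 and KIF11 and higher in every Fts sample for KIF15, KIF16B, KIF1C and KIF2C, with a sample without a peak counted as 0. Both directions came to 4 of 30 genes (13.3%), against 10.7% lower and 13.2% higher over all mRNA genes with a peak. These shares lay near the background too. This reading was chosen after the data had been seen.

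**Figure D4:**
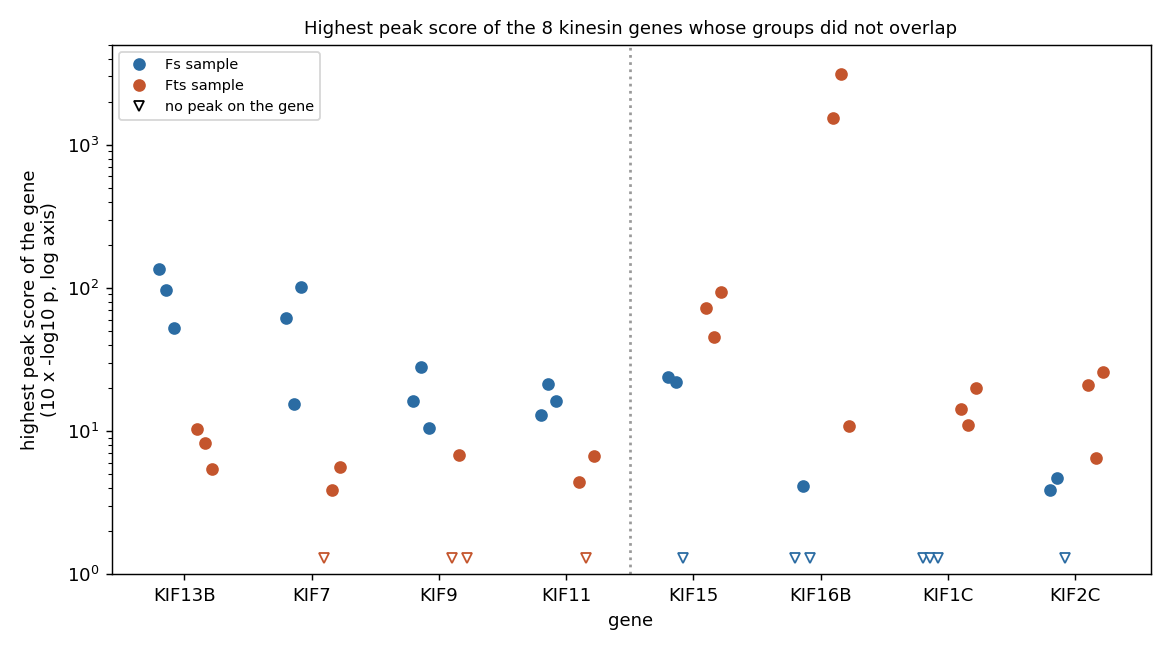
Highest peak score of the 8 kinesin genes whose Fs (blue) and Fts (orange) samples did not overlap, on a log axis. Points are samples, and an open triangle at the bottom marks a sample without a peak. KIF13B goes from 52.4 to 135 in Fs to 5.47 to 10.3 in Fts, and KIF16B reaches 1537 in Fts 1 and 3100, a possible ceiling of the score, in Fts 2.

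Merging overlapping peaks of the 6 samples gave 97 kinesin regions, of which 52 (53.6%) came from 1 sample, against 47.3% of the regions of all mRNA genes. A peak in all 6 samples was found in 3 regions (3.09%), among them KIF5C exon 14 and the KIF1BP 3'UTR, against 3.31% of 26095 regions over all mRNA genes. A peak in all 3 Fts samples and no Fs sample was found in 3 regions (3.09%), on KIF1C exon 23, KIF3A exon 13 and KIF1B exon 21, against 6.82%. A peak in all 3 Fs samples and no Fts sample was found in 4 regions (4.12%), on KIF13B exon 31, KIF12 exon 7, KIF13A exon 13 and the KIF21A 3'UTR, against 3.63%. The difference between the kinesin shares and those of all genes was not tested. Without Fts 1, Fts 2 or Fts 3 in turn, 11, 5 and 7 regions were confined to Fts and 5, 6 and 4 to Fs. Leaving out a sample loosens the rule for both counts, so a rise was largely built in. No share over all mRNA regions is given for these settings. At a minimum score of 20 or 50 with all samples kept, the regions in all 6 samples, confined to Fts and confined to Fs each fell to 0.

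The deposited list of differential sites between Fts and Fs had 1695 sites on mRNA exons, and 7 of them lay on 6 kinesin genes, which is 14.6% of the 41 genes against 7.41% of all mRNA genes. Kinesin transcripts are longer than the median, as given above, and the list carries no direction. The sites were centred on KIF13A exon 18, KIF15 exon 8, KIF16B exon 1 (5'UTR), KIF1B exon 27, KIF5A exon 25 and KIF5B exon 24. A further KIF1B site was centred outside the exons of the longest transcript. The study itself names KIF1B, KIF5A, KIF5B and KIF15 as differentially methylated. For KIF5B it reports both a more and a less methylated peak after cryopreservation, whereas a single KIF5B site was found here. Only the KIF15 site (chr13:27996611-27996820, plus strand) overlapped a peak, in 4 samples with scores of 23.8 and 22.0 in Fs 1 and Fs 2 and 72.2 and 93.7 in Fts 1 and Fts 3. Fs 3 and Fts 2 had no peak there.

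The other 6 kinesin sites lay on exons without a peak in any sample. KIF5A had a site and no peak at all. The nearest peak to the KIF5B site was 1632 bp away in the genome and that to the KIF16B site 55901 bp away, and the distances were 5003 bp for KIF13A and 5885 and 15757 bp for KIF1B. The sites of KIF5A (chr5:22846567-22846783, plus strand) and KIF5B (chr10:42645012-42645228, minus strand) covered the corresponding exons of these paralogs, both 217 nt long. The exons shared 153 bases in place (70.5%), and their longest identical stretch was 14 nt.

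Partners of the kinesins and of the opposing motor dynein were described as a list. Of 31 symbols, 29 were annotated, 26 had a peak, and the list held 24, 23 and 25 peaks in Fs and 39, 38 and 42 in Fts, so every Fts sample was above every Fs sample. Of these 26 genes, 5 were higher in every Fts sample (DYNC1I1, BICD2, BICDL1, HOOK2 and HOOK3) and 2 were lower (STARD9 and DYNC1I2). The same calls were made for 8.98% and 5.36% of all genes with a peak, as given above. The largest gains in number were on BICD2 and HOOK3, adaptors that link dynein to cargo. BICD2 had no peak in Fs and 4, 5 and 5 in Fts, and HOOK3 had 0, 2 and 0 in Fs and 6, 7 and 10 in Fts. The adaptors BICD1 (3, 2 and 2 in Fs, 3, 1 and 2 in Fts) and HOOK1 (1, 1 and 1 in Fs, 2, 2 and 1 in Fts) overlapped. By highest score, CENPE, DYNC1I1, DYNC1LI2, BICD2, BICDL1 and HOOK3 were higher in every Fts sample than in any Fs sample. KLC4, DYNC1I2, DCTN2 and BICD1 were lower, with a sample without a peak counted as 0. Over all mRNA genes with a peak, 13.2% were higher and 10.7% lower by this reading, which was chosen after the data had been seen.

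KIFAP3, the third subunit of kinesin-2, had 1, 0 and 0 peaks in Fs and 1, 2 and 1 in Fts. Of the kinesin light chains, KLC1 had 1, 0 and 2 peaks in Fs and 1, 3 and 2 in Fts, KLC4 had 1 in each Fs sample and 0, 2 and 0 in Fts, KLC2 had 1, 1 and 0 in Fs and none in Fts, and KLC3 had none. Of the adaptors that link kinesins to cargo, MAPK8IP1 had 2, 1 and 2 peaks in Fs and 1, 1 and 0 in Fts, PLEKHM2 had 0, 1 and 2 and 0, 1 and 0, and TRAK1 had 0, 1 and 1 and 0, 1 and 0. TRAK2 had a peak in Fts 3 and MAPK8IP3 in Fts 2. Of the motors named outside the KIF series, CENPE, which carries chromosomes at the spindle, had 3, 4 and 4 peaks in Fs and 4, 3 and 3 in Fts, and STARD9, a centrosome motor, had 2, 2 and 3 in Fs and 1, 1 and 0 in Fts.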

How the data were processed

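Per the labels and the study's methods, RNA was depleted of ribosomal RNA, fragmented and precipitated with an anti-m6A antibody, and strand-specific libraries were sequenced. The authors trimmed reads with cutadapt 1.9.3, aligned them with HISAT2 to susScr11, called peaks with MACS for each IP sample against its own input, found differential sites with diffReps, and kept those on mRNAs. In the peak lists the deposited score is the authors' MACS score, 10 times -log10 p, and in the site list the authors' score grows with -log10 p and has no direction. The lists carry no scaling between samples and no read depth, so precision rests on 3 samples per group.

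The RefSeq annotation of Sscrofa11.1 was used to assign peaks and sites to genes with Python 3.11.15, NumPy 2.4.6 and pysam 0.24.0. A peak belonged to a gene when at least 1 bp lay on a same-strand mRNA exon, and its midpoint was placed on the longest coding transcript. Overlapping peaks of the 6 samples were merged into regions. Samples were grouped by their labels. Sums over the kinesin genes are given as values with no test. Genes were compared by peak number with a two-sided exact permutation test and Benjamini-Hochberg adjustment over 11705 genes with a peak, and a gene was called when its groups did not overlap. The steps were checked on simulated peak lists with planted differences.

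The genes named are those whose groups did not overlap, the 6 with the most peaks, the 6 with the highest score, and those with a repeated region or a site, and other names were chosen after their values were seen. The kinesin genes and all lists were chosen with earlier results of these data known. Alternatives were a minimum score of 20 or 50, the midpoint rule, joined peaks, coverage of at least 50% of a region, other transcripts and motifs, pairs of equal number, each sample left out and, added after the data were seen, the highest score of a gene and the score limits with a sample left out. Marker and partner lists served as descriptions. Reads were not analysed here. The sequence and details of 1 of the kinesin regions with a peak in all 6 samples are not reported here.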

Additional observations from a re-analysis of the deposited data

How the results depend on the processing

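Over 11 summaries of the kinesin peaks, the difference of the median scores (-1.88, Fts minus Fs) turned to 17.9 with peaks of at least 20 and to 250 with peaks of at least 50, the latter being 11.1 without Fts 1. At both limits the genes higher in Fts, the regions confined to Fts, those confined to Fs and those in all 6 samples fell to 0. At a limit of 20 the difference per 1000 peaks became -0.813, that of the CDS share 13.2 percentage points and that of the RRACH share -0.185 points, and at 50 the last was 0. With GGACT in place of RRACH it was 0.176 points. When a peak had to cover at least 50% of a region, 1 region was left in all 6 samples. By highest score, 4 genes were lower in Fts. The cause was not tested.

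With 1 sample left out, the genes higher in Fts numbered 3 to 5, those lower 1 to 2 and the regions confined to Fts 3 to 11. The difference in kinesin genes with a peak ran from -0.167 to 3.33 and that per 1000 peaks from -0.360 to 0.192, so neither had a stable sign. The calls of KIF16B, KIF1B, KIF1C and KIF13A held without each of the samples in turn, but this was fixed in advance. Groups that do not overlap stay apart when a sample is dropped, so leaving samples out cannot test these calls. For the same reason the counts of genes higher or lower could only stay or rise. Leaving out a sample also loosens the rule for regions confined to a group, so a rise there was largely built in.

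Deviations of equal-numbered samples from their group means correlated at 0.0103, -0.0143 and 0.0129 over 11705 genes. Unequal-numbered samples gave -0.0348 to 0.0250. Whether equal numbers stand for the same boar cannot be decided from these values, as peak numbers per gene are small. The study states that it compared Fs and Fts as pairs. With a replicate block, 4 genes were higher in all 3 pairs, KIF3B being added, and 3 were lower, KIF13B and KIF9 being added. This rule is looser than the absence of overlap. No share of all mRNA genes is given under it, so these counts cannot be set against the background given above.

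The lists give no read counts, and 3 samples per group cannot give an exact p under 0.1.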
